A study of Mus musculus with 2 samples.

Results

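Cxcl10+ monocytes are the cells that the authors labeled Monocyte (Cxcl10+) in regenerating mouse muscle, a small group named for the chemokine gene Cxcl10. They were taken as every barcode carrying that label in the deposited cell annotation of the day 2 and day 7 libraries. The label covered 38 cells at day 2 and 45 cells at day 7, or 83 of 6429 kept cells in all. Single-cell RNA sequencing (10x Chromium v3) had been run on tibialis anterior, a hindlimb muscle in mice, after its fibers had been injured with notexin, a toxin from snake venom. There was 1 library at day 2 and 1 at day 7 after injury, each from 1 mouse according to the cell annotation, made from dissociated whole muscle without sorting. Both mice were C57BL/6 (C57BL/6J in the cell annotation), and no uninjured library was analyzed here. The labels give both mice as female and 7 months old, whereas the cell annotation gives both as male and their ages as 4 months (day 2) and 7 months (day 7). Because each day is 1 mouse, the day after injury, the animal and its age cannot be told apart, and differences below were not checked in replicates.

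Interferons are secreted proteins that warn cells of infection or of misplaced nucleic acid. Type I interferons bind the Ifnar1 and Ifnar2 receptor pair, whose kinases activate Stat2 and other factors, which join Irf9 and switch on interferon-stimulated genes. Those genes encode antiviral effectors, nucleic acid sensors, GTPases, antigen presentation proteins and chemokines such as Cxcl10, a ligand of the receptor CXCR3 that draws T cells and natural killer (NK) cells. Monocytes arrive from the blood in injured muscle and mature there into macrophages.

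Many promoters of interferon-stimulated genes hold an interferon-stimulated response element, whose core was searched here as GAAANNGAAA, with N any base, on both strands (TTTCNNTTTC on the other strand). The searched windows held the 250 bases before each start site in RefSeq promoters of build GRCm38.p6, and bases after the start site were not searched. The core was found in 978 of 32841 windows (2.98%), covering 936 of 27018 gene symbols (3.46%). Of 32 antiviral effector genes, 26 had a window under their symbol and 14 of these (53.8%) held the core. The 5 stretches below are shown because these genes held the core and were among the 12 with the largest ratio of Cxcl10+ monocytes to the other monocytes and macrophages at day 2 and again at day 7, in a ranking of genes with at least 100 counts in 1 of the 2 groups and UMIs in at least 20% of its cells. Capitals mark the matches, each stretch runs 5′ to 3′ on the strand of its gene, and a match is a description of the letters only.

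Cxcl10, minus strand, chr5:92349068-92349127: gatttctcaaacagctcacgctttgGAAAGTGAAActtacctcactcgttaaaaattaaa
Rsad2, minus strand, chr12:26456538-26456597: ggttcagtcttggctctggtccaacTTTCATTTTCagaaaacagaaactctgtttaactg
Ifit1, plus strand, chr19:34640760-34640838: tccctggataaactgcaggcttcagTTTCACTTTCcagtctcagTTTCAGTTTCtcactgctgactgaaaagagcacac
Ifit3, plus strand, chr19:34583348-34583441: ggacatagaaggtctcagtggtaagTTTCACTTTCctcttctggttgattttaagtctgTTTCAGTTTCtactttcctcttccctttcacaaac
Isg15, minus strand, chr4:156200850-156200921: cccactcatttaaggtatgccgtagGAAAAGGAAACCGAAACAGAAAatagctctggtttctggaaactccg

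The first match lay 213 bases before the start site in Cxcl10, 120 in Rsad2, 104 in Ifit1, 156 in Ifit3 and 78 in Isg15. Ifit1 and Ifit3 held 2 matches each, and Isg15 held 3 that overlap. Of 10 interferon-inducible GTPase genes with a window, 9 held the core, while 0 of 5 interferon receptor genes and 0 of 4 genes of MHC class II presentation did. The core was also in 11 of 20 interferon ligand genes, 4 of 11 nucleic acid sensor genes, 3 of 15 MHC class I genes and 1 of 10 signal transducer genes. Ifit2, Cmpk2, Oasl1, Isg20, Irf7 and Ifitm3 had a window without these letters.

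The day 2 library held 41123913 unique molecular identifier (UMI) counts in its called barcodes and the day 7 library 32356088. Cxcl10+ monocytes contributed 394843 and 386162 of these counts, with medians of 10174 counts and 2737 genes per cell at day 2 and of 7785 counts and 2236 genes at day 7. No cell of the group shared its barcode with a kept cell of the other library, and 1 barcode was shared over all kept cells. Below, levels are counts-per-million values (CPM) of the summed counts of a group of cells, ratios compare 2 such levels, and the 95% intervals in parentheses cover counting error only. Levels were not corrected for gene length and are compared within a gene or list, never between genes. The other monocytes and macrophages were pooled over the 5 labels Monocyte (Inflammatory), Monocyte (Patrolling), M1 Macro., M2 Macro. (Cx3cr1_hi) and M2 Macro. (Cx3cr1_lo), with 1254 cells and 16090512 counts at day 2 and 712 cells and 7133757 counts at day 7. The labels had come from clustering on gene expression, so each ratio to the other labels describes the cells and is not a test.

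The group held 1.18% (0.840 to 1.62) of 3208 kept cells on day 2 and 1.4% (1.02 to 1.87) of 3221 on day 7. Among cells with a monocyte or macrophage label, it held 2.94% (2.09 to 4.01) on day 2 and 5.94% (4.37 to 7.87) on day 7. With 1 mouse a day, these intervals do not bear on a difference between the days.

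The label was described by 4 markers, Cxcl10, Rsad2, Ifit2 and Mx1, which cannot test it because it came from clustering on expression. Together they reached 3964 (3770 to 4165) CPM at day 2, against 104 CPM in the other monocytes and macrophages. At day 7 the levels were 2670 (2509 to 2838) and 305 CPM. At least 3 counts of the 4 markers were found in 35 of 38 cells at day 2 and in 45 of 45 at day 7, against 13.8% and 27.8% of the other monocytes and macrophages.

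The word monocyte in the name was checked with a monocyte and a macrophage gene. Ly6c2, a surface protein gene of classical monocytes, was found in 27 of 38 cells at day 2 and in 9 of 45 at day 7, against 50.7% and 9.69% of the other monocytes and macrophages, and in 83.3% and 22.6% of inflammatory monocytes. C1qa, a complement subunit of macrophages, was found in 9 of 38 cells at day 2 and in 45 of 45 at day 7, against 39.6% and 94.2% of the other monocytes and macrophages. Both genes thus differed between the days in the same direction in the other labels. The day 7 level of C1qa, 6609 CPM, lay above those of Monocyte (Inflammatory), 2019 CPM, Monocyte (Patrolling), 4568 CPM, and all 3 macrophage labels. The name is therefore used below as the authors' label and not as a stage of maturation.

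Markers of other cell types were summed next. At day 2, all 5 matched T cell markers, 5 NK cell markers, 4 B cell markers, 3 neural, 3 tenocyte and 3 basophil and mast cell markers were at 0. At day 7 the NK cell list had 1 count and the B cell list 13 counts, Cd3d, Cd3e, Cd3g and Cd8a were at 0 and the T cell list came from 16 counts of Cd4, a gene that mouse monocytes and macrophages can also express. The 4 endothelial markers Pecam1, Cdh5, Kdr and Cldn5 summed to 109 (78.8 to 147) CPM at day 2, against 53.9 in the other monocytes and macrophages, and to 135 (101 to 177) against 29.9 CPM at day 7. Single cells ranged from 0 to 606 CPM at day 2 and from 0 to 1774 at day 7. At least 3 endothelial marker counts were found in 7 of 38 cells and in 4 of 45, against 5.58% and 1.83% of the other monocytes and macrophages. Leaving out such cells gave a ratio of the antiviral effector list, described next, of 3.68 at day 2 and 3.06 at day 7. The 7 neutrophil markers summed to 172 (134 to 218) CPM at day 2, against 93.5, and to 98.4 (69.6 to 135) CPM at day 7, against 76.0, where S100a9, Retnlg, Mmp9 and G0s2 were at 0. Markers of fibro-adipogenic progenitors summed to 200.1 CPM against 214 at day 2 and to 277 against 309 CPM at day 7, and those of myofibers to 7.60 against 11.6 and to 342 against 400 CPM. At least 3 counts of the former were found in 15 of 38 and 17 of 45 cells, against 41.7% and 45.1% of the other monocytes and macrophages. At least 3 counts of the latter were found in 0 of 38 and 22 of 45, against 0.558% and 39.5%. In ambient RNA, taken from barcodes with 1 to 100 counts, the neutrophil list stood at 1092 and 58.8 CPM and the endothelial list at 364 and 455 CPM, and at day 7 the progenitor list stood at 6372 and the myofiber list at 10748 CPM. Cells with at least 3 marker counts of any other type numbered 22 of 38 and 32 of 45. The part of such RNA in the results was not tested.

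The antiviral effector list held 32 genes, 31 of them under the same symbol in the gene table, and these are the proteins that block viral replication inside a cell. Cxcl10+ monocytes carried 21515 (21060 to 21977) CPM of the list at day 2, against 5867 CPM in the other monocytes and macrophages, a ratio of 3.67 (3.59 to 3.75). The day 7 levels were 15763 (15369 to 16164) and 5246 CPM, a ratio of 3.0 (2.92 to 3.09). Ifitm3, a membrane protein that blocks viral entry, was the member with the most counts, and without it the ratio was 5.96 at day 2 and 3.30 at day 7. In ambient RNA the list stood at 2259 CPM at day 2 and 2754 CPM at day 7.

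List members were called measured with at least 20 counts in 1 of the 2 sums, and higher or lower at a 2-fold difference. At day 2, 27 of 30 measured antiviral effectors were higher in Cxcl10+ monocytes and 0 were lower, where 6.58% of all 10259 measured genes were higher and 5.41% were lower. At day 7, 30 of 31 were higher and 0 lower, where 5.77% of 9871 genes were higher and 3.86% lower. The median ratio of the list was 5.27 at day 2 and 3.43 at day 7, and that of all measured genes was 1 on both days. Among the 6 monocyte and macrophage labels, Cxcl10+ monocytes had the highest level of 30 of 30 measured effectors at day 2 and of 29 of 31 at day 7, against 20.7% and 20.1% of all measured genes.

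**Figure D1:**
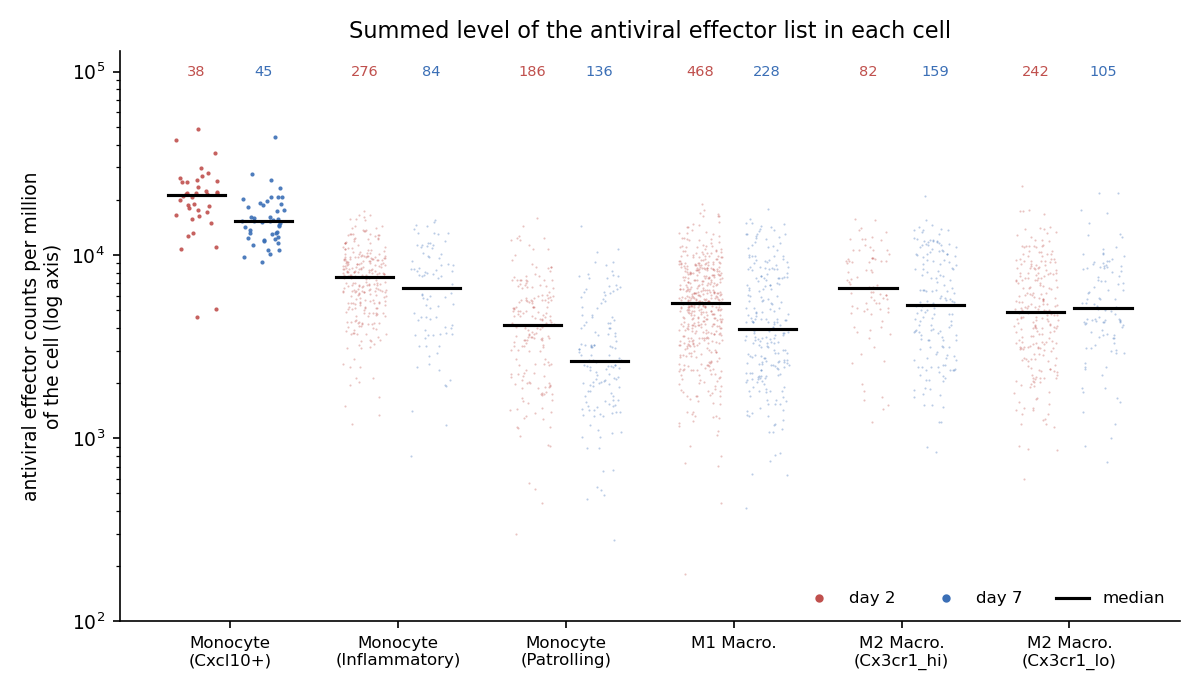
Summed antiviral effector level of each cell in CPM (log axis) for the 6 monocyte and macrophage labels, with 1 point per cell, day 2 in red and day 7 in blue, numbers of cells above each group and black bars at the medians. The Cxcl10+ monocytes have medians of 21146 at day 2 and 15234 at day 7, and the medians of the other labels lie lower on both days.

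The level was spread over the cells and not set by a few of them. At day 2 the single cells held from 4577 to 48499 CPM of the list, with a median of 21146, and 36 of 38 lay above the median of the other monocytes and macrophages, 5629 CPM. The 2 exceptions, at 4577 and 5062 CPM, were followed by a cell at 10729. At day 7 the cells held from 9145 to 43960 CPM, with a median of 15234, and 45 of 45 lay above the other median of 4361 CPM. The ranges overlapped all the same, since the highest other cell stood at 23796 CPM at day 2 and 21898 at day 7. After each cell was thinned to 2000 UMIs, the median cell held 44.5 effector UMIs at day 2 and 30 at day 7, against 14 in inflammatory monocytes on both days.

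The ratios of single effectors were larger at day 2 than at day 7 for 26 of 30 members measured on both days, a share that was not counted over all genes. Rsad2 (chr12:26442746-26456452), whose product viperin makes a chain-terminating nucleotide, stood at 2378 CPM at day 2 against 51.0, a ratio of 46.6 (42.4 to 51.2). Its day 7 levels were 816 and 96.6 CPM, a ratio of 8.45 (7.37 to 9.66). Leaving out the 2 cells with the most Rsad2 counts, which held 29.7% of them at day 2, gave ratios of 35.1 and 6.57.

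The Ifit genes, whose products bind viral RNA, lie together on chromosome 19. Ifit1 (chr19:34640871-34650009) stood at 570 CPM against 13.2 at day 2, a ratio of 43.0 (35.5 to 52.2), and at 331 against 31.5 at day 7, a ratio of 10.5 (8.39 to 13.1). Ifit3 (chr19:34583531-34588731) stood at 656 against 17.0 CPM, a ratio of 38.5 (32.4 to 45.8), and at 842 against 118 CPM, a ratio of 7.12 (6.25 to 8.10). Ifit2 (chr19:34550694-34576419) had levels of 248 CPM at day 2 and 686 CPM at day 7, where it was found in 57.9% and 100% of the cells.

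In the other monocytes and macrophages Ifit2 stood at 3.29 CPM at day 2 and 97.3 CPM at day 7. Its ratio was therefore 75.4 (53.4 to 107) at day 2 and 7.05 (6.10 to 8.14) at day 7, although the level in Cxcl10+ monocytes was higher at day 7. The same held for Ifit3 and Mx1, whose day 7 ratios were smaller beside higher day 7 levels.

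Isg15 (chr4:156199424-156200818), which encodes a ubiquitin-like protein that is attached to other proteins, stood at 3097 CPM at day 2 against 286, a ratio of 10.8 (10.2 to 11.5). At day 7 it stood at 1497 against 305 CPM, a ratio of 4.90 (4.47 to 5.38). Mx1 (chr16:97447035-97462907), a dynamin-like GTPase that traps viral nucleocapsids, stood at 251 against 14.9 CPM, a ratio of 16.8 (13.2 to 21.3), and at 370 against 42.2 CPM, a ratio of 8.78 (7.14 to 10.7). The smallest ratios of the list at day 2 were those of Zc3hav1, an RNA-binding antiviral protein, at 1.78 (1.42 to 2.21), and Ifitm3, at 1.85 (1.77 to 1.92). Samhd1, which degrades nucleotides, had the smallest ratio at day 7, 1.60 (1.38 to 1.85).

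Detection of several effectors in 1 cell was counted for 8 genes, Rsad2, Ifit1, Ifit2, Ifit3, Mx1, Isg15, Oasl1 and Irf7. At least 5 of the 8 were found in 35 of 38 Cxcl10+ monocytes at day 2 and in 43 of 45 at day 7, against 9.17% and 25% of the other monocytes and macrophages. All 8 were found in 14 cells at day 2 and in 24 at day 7. The median cell of the group held UMIs of 24 genes of the effector list on both days, against 10 and 11 in the other cells.

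**Figure D2:**
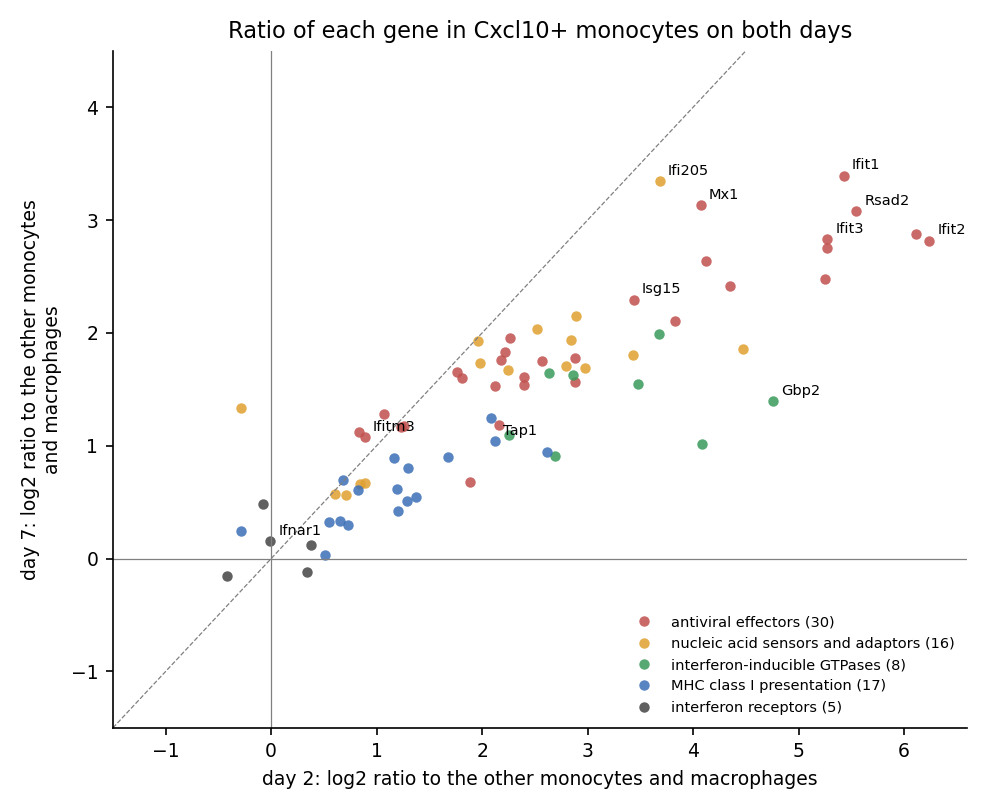
Log2 ratio of each measured gene in Cxcl10+ monocytes to the other monocytes and macrophages, day 2 on the x axis and day 7 on the y axis, with 1 point per gene colored by list and a dashed line where both days are equal. The antiviral effectors lie at higher ratios on both axes, most of them below the dashed line (Ifit1 with ratios of 43.0 and 10.5), and the receptors lie near 0.

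Interferon genes themselves were examined next. None of 21 interferon ligand genes had a count in Cxcl10+ monocytes on either day, and a count of 0, taken as a floor of 3 counts, allows up to 7.60 CPM at day 2 and 7.77 CPM at day 7. In all kept cells, Ifnb1 had 5 counts at day 2 and 2 at day 7. Ifng, the type II interferon of lymphocytes, had 29 counts at day 2, of which 24 were in NK cells, and 1020 at day 7, of which 646 were in T cells and 350 in NK cells. These ligands were not detectable in Cxcl10+ monocytes at this depth.

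The receptors differed little from those of the other labels. Summed over 6 genes, interferon receptor transcripts stood at 638 (562 to 722) CPM at day 2 against 589, a ratio of 1.08 (0.952 to 1.23). At day 7 they stood at 738 (655 to 829) against 703 CPM, a ratio of 1.05 (0.928 to 1.18). Of 5 measured receptors, 0 differed by 2-fold on either day, and Ifnar1 had ratios of 0.992 (0.666 to 1.42) and 1.11 (0.704 to 1.68). Of all genes, 6.58% were higher and 5.41% lower at day 2, and 5.77% and 3.86% at day 7. The count of 0 alone therefore does not set the receptors apart from most genes.

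Of 11 signal transducers and transcription factors, 5 were higher at day 2, with Jak2, Stat2, Irf7 and Irf1 among them, and 4 at day 7, with Jak2, Stat2 and Irf7 among them, where 6.58% and 5.77% of all genes were higher. Irf7 (chr7:141262706-141266481), the factor that amplifies interferon transcription, stood at 1350 CPM against 163 at day 2, a ratio of 8.31 (7.55 to 9.12), and at 1652 against 480 at day 7, a ratio of 3.44 (3.16 to 3.75). Stat2, a factor activated by the receptor kinases, had ratios of 4.95 (3.52 to 6.81) and 3.11 (2.40 to 3.99). Irf9, its DNA-binding partner, stayed under 2-fold, with 1.53 (1.02 to 2.22) and 1.30 (0.869 to 1.89). The one lower member was Irf3, which acts downstream of the sensors, with 3 counts at day 2 and a ratio of 0.416 (0.0853 to 1.23).

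Nucleic acid sensors and their adaptors were higher as a list, at 5.17 (4.94 to 5.41) times the summed level of the other labels at day 2 and 3.14 (2.97 to 3.32) times at day 7. At day 2, 11 of 17 measured members were higher and 0 lower, and at day 7, 12 of 18 were higher and 1 was lower, where the shares of all genes were 6.58% and 5.41%, and 5.77% and 3.86%. Ifih1, the sensor MDA5 of long double-stranded RNA, had ratios of 7.39 (5.92 to 9.15) and 4.45 (3.59 to 5.48). Ddx58, the sensor RIG-I, had ratios of 7.15 (5.67 to 8.94) and 3.82 (2.89 to 4.98).

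Among genes of the DNA-binding Ifi200 family, Ifi205 had ratios of 12.8 (10.0 to 16.3) and 10.1 (6.16 to 16.4), and Mndal of 10.8 (9.45 to 12.3) and 3.48 (3.03 to 3.98). Aim2, a sensor of cytosolic DNA, stayed under 2-fold, with 1.79 (0.807 to 3.46) and 1.58 (1.07 to 2.26). Members of this family are close paralogs, and reads shared between them could not be resolved here. The adaptor genes gave smaller values, with ratios of Tmem173, which encodes STING, of 1.52 (0.906 to 2.40) and 1.49 (1.0 to 2.14), and of Myd88 of 1.86 (1.4 to 2.42) and 1.60 (1.07 to 2.30). Mavs, the mitochondrial adaptor of the RNA sensors, had 0 counts at day 2 and 3 counts at day 7, a ratio of 0.377 (0.0769 to 1.12).

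Interferon-inducible GTPases, which attack the membranes around intracellular pathogens, summed to 10.6 (9.64 to 11.6) times the level of the other labels at day 2, with 8 of 8 measured members higher. At day 7 the ratio of the sums was 3.20 (2.89 to 3.52), with 10 of 12 higher, where 6.58% and 5.77% of all genes were higher. Gbp2 had a ratio of 27.0 (20.5 to 35.4) at day 2 and 2.63 (2.02 to 3.37) at day 7. That day 7 ratio was 0.981 when cells with 3 or more counts of markers of other cell types were left out. Iigp1, another member, had 1 count in the group at day 2 and 62 counts at day 7, where its ratio was 8.12 (5.93 to 11.0). Cxcl10+ monocytes had the highest level among the 6 labels for 8 of 8 GTPases at day 2 and for 12 of 12 at day 7, against 20.7% and 20.1% of all measured genes.

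Feedback inhibitors of the pathway were present too. Usp18, which removes Isg15 from proteins and blocks the type I receptor, had ratios of 15.7 (12.6 to 19.5) at day 2 and 4.32 (3.22 to 5.72) at day 7. Socs1, an inhibitor of Jak kinases, had ratios of 1.54 (0.789 to 2.73) and 4.38 (2.46 to 7.39). Socs3, an inhibitor of cytokine signaling, had ratios of 1.4 (1.13 to 1.72) and 1.04 (0.713 to 1.47).

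Cxcl10 (chr5:92346638-92348889), the gene that names the group, stood at 1087 (986 to 1194) CPM at day 2 against 34.6, a ratio of 31.4 (27.6 to 35.7). At day 7 it stood at 798 (711 to 892) against 68.5 CPM, a ratio of 11.6 (10.1 to 13.4). The gene gave its name to the label, so these levels describe the label. In ambient RNA, Cxcl10 stood at 31.8 CPM at day 2 and 144 CPM at day 7.

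Cxcl10 was found in 27 of 38 cells (71.1%, 54.1 to 84.6) at day 2 and in 24 of 45 (53.3%, 37.9 to 68.3) at day 7. The shares in the other monocytes and macrophages were 9.17% and 15.3%. After thinning to 2000 UMIs, with no cell of the group left out, the shares were 50% (33.4 to 66.6) and 37.8% (23.8 to 53.5). T cells at day 2 had Cxcl10 in 1 of 50 cells (2.00%) at a median of 3319 counts per cell, and in 0 of 46 after thinning, while 4 shallower cells were left out. Type IIb myonuclei at day 7 had it in 2 of 76 (2.63%) at a median of 3826 counts per nucleus, and in 0 of 75 after thinning, with 1 left out. T cells at day 7 had it in 40 of 293 (13.7%) at a median of 3620 counts, and in 26 of 248 (10.5%) after thinning, with 45 left out. The shares in Cxcl10+ monocytes lay above these on both days, and some of the cells under the label had no Cxcl10 count.

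The chemokine was unevenly spread over the cells. At day 2 the median cell held 183 CPM of Cxcl10 and the highest 6365 CPM, and 5 cells held 52.9% of the counts. At day 7 the median was 75 CPM and the highest 13407 CPM, and 5 cells held 72.7%. Without the 2 cells with the most Cxcl10 counts, the ratio to the other monocytes and macrophages was 25.1 at day 2 and 6.46 at day 7.

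The effector list was also compared between cells with and without Cxcl10. Cells with a Cxcl10 count had a median effector level of 21654 CPM at day 2, against 18554 in the 11 cells without, and of 15341 CPM at day 7, against 14648 in the 21 without. Both cells with the lowest effector levels at day 2, 4577 and 5062 CPM, had no Cxcl10 count, and the lowest cell with one stood at 10729 CPM. Rsad2 stood at 2658 CPM in cells with a Cxcl10 count and 1500.1 CPM in those without at day 2, and at 882 and 750.2 CPM at day 7. The medians on both sides of the split lay above those of the other monocyte and macrophage labels.

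**Figure D3:**
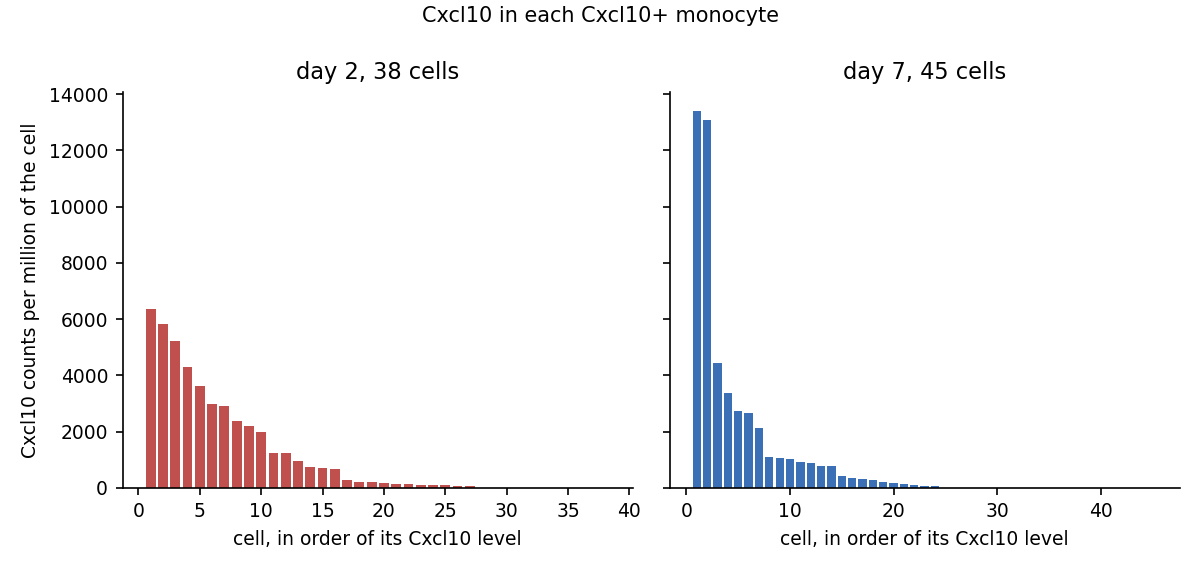
Cxcl10 level in CPM in each Cxcl10+ monocyte, in order of its level, with 1 bar per cell, day 2 on the left (38 cells) and day 7 on the right (45 cells). The first 5 bars hold 52.9% of the Cxcl10 counts at day 2 and 72.7% at day 7, and 11 and 21 cells have none.

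Compared with all labels in the muscle, Cxcl10+ monocytes had the highest Cxcl10 level at day 2 and the second highest at day 7. At day 2 they held 20.9% (19.2 to 22.7) of the 2051 Cxcl10 counts of kept cells with 1.18% of the cells, and neutrophils held 21.3% (19.5 to 23.1) with 22.1% of the cells at 224 CPM. At day 7 they held 7.29% (6.52 to 8.11) of 4227 counts. Tenocytes stood first at day 7 with 1032 (940 to 1130) CPM in 48 cells, and the pro-remodeling fibro-adipogenic progenitors held 39.2% (37.8 to 40.7) of the counts at 282 CPM. The intervals of tenocytes and Cxcl10+ monocytes did not overlap, but they leave out the spread over cells and mice. In Cxcl10+ monocytes, 5 cells held 72.7% of the day 7 counts.

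**Figure D4:**
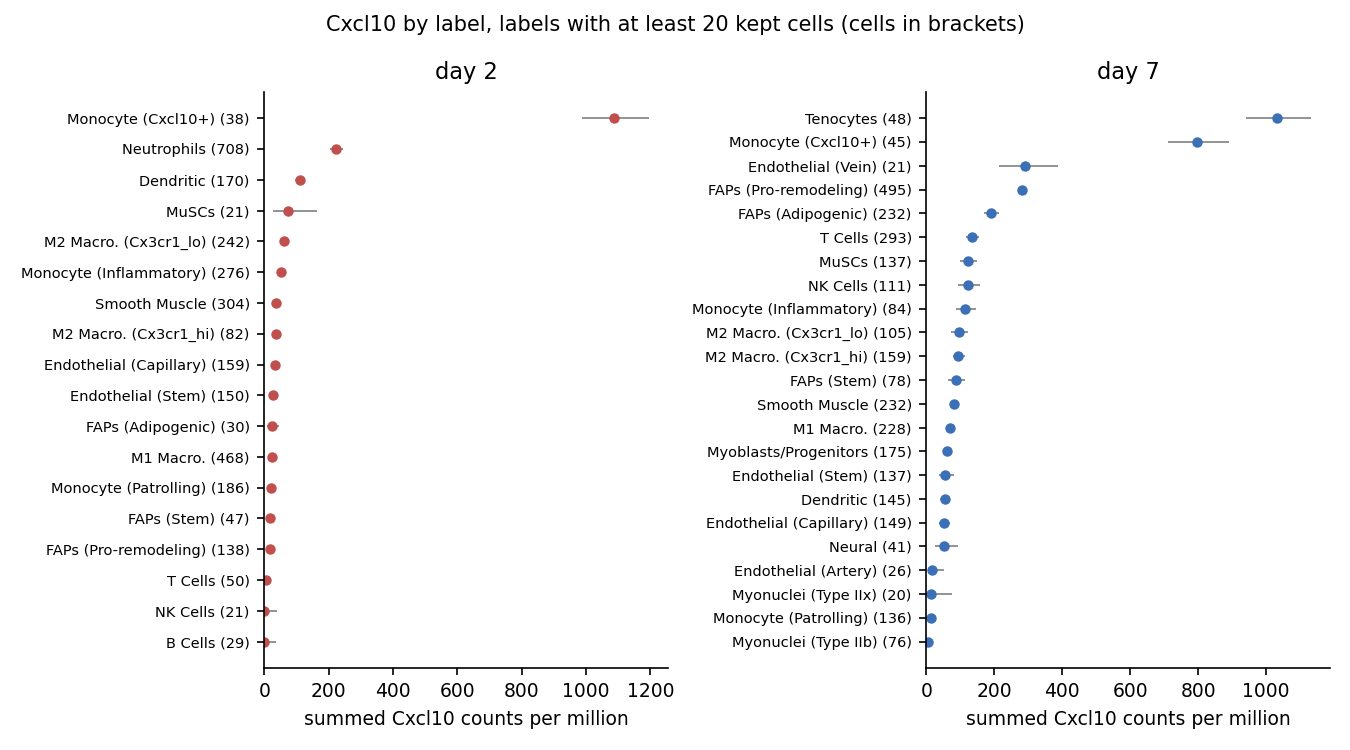
Summed Cxcl10 level in CPM by label with 95% Poisson intervals for counting error, for labels with at least 20 kept cells (number in brackets), day 2 on the left and day 7 on the right. Cxcl10+ monocytes stand apart at day 2 with 1087 and lie below tenocytes, at 1032, with 798 at day 7.

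Cxcl9 (chr5:92321347-92328079), a second CXCR3 ligand, had 38 counts at day 2, all in 1 cell, and 14 counts in 5 cells at day 7, a ratio of 1.42 (0.762 to 2.45). Among the other chemokines, 3 of 14 were higher and 4 lower at day 2, and 3 of 13 were higher and 1 lower at day 7, where the shares of all genes were 6.58% and 5.41%, and 5.77% and 3.86%. Several of the higher values rested on few cells. Ccl5 at day 2 had 20 counts with 17 in 1 cell, and Ccl7 at day 7 had 27 counts with 17 in 1 cell, and without the 2 cells with the most counts their ratios were 0.973 and 0.522. Ccl12, a monocyte attractant, had ratios of 2.40 (2.24 to 2.57) and 4.0 (2.85 to 5.51), which were 1.29 and 2.43 without the 2 cells with the most counts. Its levels in the group were 2188 and 122 CPM. The highest other label on both days was M2 Macro. (Cx3cr1_lo), at 1552 and 126 CPM. Ccl5, a T cell attractant, stood at 987 against 148 CPM at day 7, a ratio of 6.68 (5.92 to 7.52), but 2 cells held 84.0% of its counts and the ratio without them was 1.15. It was 0.259 when cells with 3 or more marker counts of other cell types were left out. Among neutrophil attractants at day 2, Cxcl2 at 0.415 (0.375 to 0.459) and Cxcl3 at 0.202 (0.101 to 0.362) times the other labels were past 2-fold, and Cxcl1 at 0.505 (0.288 to 0.823) was not. Ccl8 at 0.262 (0.224 to 0.305) and Ccl24 at 0.313 (0.191 to 0.484) were lower as well.

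Genes of inflammation and T cell co-stimulation were higher for 6 of 12 measured members at day 2 and 6 of 13 at day 7, and 0 were lower on either day, where 6.58% and 5.77% of all genes were higher. The ratio of the sums was 1.75 (1.65 to 1.86) at day 2 and 0.981 (0.881 to 1.09) at day 7. Il15, a cytokine that sustains NK cells, had ratios of 13.2 (8.07 to 21.0) and 2.95 (1.97 to 4.27), the latter 0.872 without cells carrying 3 or more marker counts of other cell types. Cd40, a co-stimulatory receptor, had ratios of 7.90 (5.84 to 10.5) and 2.03 (1.37 to 2.92). Cd274, which encodes the checkpoint ligand PD-L1, had ratios of 3.47 (2.29 to 5.07) and 3.57 (2.46 to 5.05).

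The same list also held a receptor antagonist and a classical inflammatory cytokine. Il1rn, the interleukin 1 receptor antagonist, stood at 1332 against 405 CPM at day 2, a ratio of 3.29 (3.0 to 3.59), and at 114 against 136 CPM at day 7. Il1b stood at 707 against 778 CPM at day 2, a ratio of 0.908 (0.803 to 1.02). The 3 NF-kB feedback genes Nfkbia, Nfkbiz and Tnfaip3, which are induced by inflammatory signals, summed to 0.661 (0.575 to 0.755) times the other labels at day 2 and 1.18 (1.04 to 1.33) times at day 7. On both days 0 of 3 passed 2-fold, where 6.58% of all genes were higher and 5.41% lower at day 2, and 5.77% and 3.86% at day 7.

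Antigen presentation was divided by class. Of 17 MHC class I genes, which serve presentation to CD8 T cells, 10 were higher at day 2 and 2 (Tap1 and Nlrc5) at day 7, with ratios of the sums of 1.79 (1.74 to 1.85) and 1.24 (1.21 to 1.27). Of all genes, 6.58% and 5.77% were higher. Tap1, a peptide transporter, had ratios of 4.34 (3.64 to 5.14) and 2.06 (1.72 to 2.46), and Nlrc5, the factor that activates class I genes, of 4.24 (2.57 to 6.65) and 2.37 (1.41 to 3.78). Of the MHC class II genes, 0 of 6 measured members passed 2-fold at day 2 and 0 of 7 at day 7, with ratios of the sums of 1.70 (1.64 to 1.77) and 1.12 (1.11 to 1.14). The class II gene with the largest day 2 ratio was H2-Eb1, just under 2-fold at 1.9996 (1.81 to 2.21), found in 39.5% of the cells, and Cd74, the invariant chain, had a day 2 ratio of 0.924 without the 2 cells with the most counts. Cxcl10+ monocytes had the highest level among the 6 labels for 15 of 17 class I genes at day 2 and 14 of 17 at day 7, and for 0 class II genes on either day, against 20.7% and 20.1% of all measured genes.

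Monocyte and macrophage identity genes were compared with the same shares of all genes, 6.58% higher and 5.41% lower at day 2 and 5.77% and 3.86% at day 7. Of 12 classical monocyte genes, 3 were higher and 0 lower at day 2. Among them were Ly6c2 at 3.64 (3.21 to 4.12) and Plac8 at 3.60 (3.36 to 3.85) times the other labels. Compared with inflammatory monocytes alone, whose Ly6c2 level was 506 CPM and Plac8 level 1496 CPM, the 702 and 2302 CPM of Cxcl10+ monocytes were nearer to it. At day 7, 0 classical genes were higher and 1 (F13a1) was lower.

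Of the macrophage genes, 1 of 18 was higher and 6 were lower at day 2, and 1 of 17 was higher and 3 were lower at day 7. The higher gene on both days was Fcgr1, the high-affinity IgG receptor CD64, with ratios of 2.92 (2.69 to 3.16) and 2.30 (2.05 to 2.58). Spp1, which encodes the matrix glycoprotein osteopontin, stood at 1093 against 6041 CPM at day 7, a ratio of 0.181 (0.164 to 0.199). The day 7 level of Spp1 ranged from 374 to 12695 CPM over the 5 other labels, so Cxcl10+ monocytes lay within their range. Cd163, a scavenger receptor of resident macrophages, had 0 counts in the group on both days and was at least 6.78-fold lower than in the other labels at day 2. Of 7 non-classical monocyte genes, 2 (Treml4 and Fcgr4) were higher and 0 lower on each day. Fcgr4, an IgG receptor, had ratios of 2.90 (2.25 to 3.68) and 2.30 (1.97 to 2.68). The day 2 ratio of Treml4 was 0.647 without cells carrying 3 or more marker counts of other cell types.

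Over the whole gene table, 97 genes were at least 4-fold higher in Cxcl10+ monocytes at day 2 and 24 at least 4-fold lower, or 1.24% and 0.307% of 7820 genes with at least 100 counts in 1 of the 2 sums. At day 7, 25 were higher and 14 lower, or 0.401% and 0.224% of 6242 genes. Several such genes came from very few cells. Requiring UMIs in at least 20% of the cells left 53 higher genes at day 2 and 14 at day 7.

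Ranks were taken among genes with at least 100 counts in 1 of the 2 sums and UMIs in at least 20% of the cells of that sum. This left out Ifit2, Gbp2 and Mx1 at day 2, with 98, 92 and 99 counts in the group, whose ratios of 75.4, 27.0 and 16.8 were larger than some below. The 12 largest ratios under these limits were, at day 2, those of Rsad2, Ifit1, Ifit3, Cmpk2, Cxcl10, Oasl1, Isg20, AA467197, Usp18, Ifi47, Isg15 and Mndal. At day 7 they were those of Cxcl10, Ifit1, Mx1, Rsad2, Ifit3, Ifit2, Ccl5, Oasl1, Isg15, Nt5c3, Ifih1 and Usp18. The genes outside the interferon lists were AA467197, whose day 2 ratio of 16.1 (13.8 to 18.7) was 6.34 without the 2 cells that held 63.0% of its counts, the chemokine Ccl5, and Nt5c3, a pyrimidine nucleotidase, with 8.68 (6.44 to 11.5) at day 2 and 4.49 (3.32 to 5.98) at day 7.

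The 8 smallest day 2 ratios were those of Kcnq1ot1, Lpl, 1500011K16Rik, Tmem37, Cxcl3, Nop16, Akr1b8 and Zbtb11. The 8 smallest at day 7 were those of Ephx1, Iqsec1, Spp1, Lpl, Hsph1, Tuba4a, Adam8 and Ppp3r1. Lpl, which encodes lipoprotein lipase, was the gene on both lists, with ratios of 0.142 (0.0826 to 0.227) and 0.190 (0.142 to 0.249), from 17 and 53 counts in the group. The counts of the others in the group were low, between 2 and 11 at day 2 and, apart from Spp1 and Lpl, between 3 and 8 at day 7.

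Between the days, the summed effector list stood at 0.733 (0.709 to 0.757) times its day 2 level at day 7 in Cxcl10+ monocytes, and at 0.844 without Ifitm3. The median ratio of its measured members was 1.02, so the lower sum does not describe the typical member. Of 31 measured effectors, 4 were higher at day 7 (Ifit2, Oas1a, Oas1g and Ifi44) and 6 were lower (Rsad2, Isg15, Isg20, Ifitm3, Cmpk2 and Slfn5). Over all 3347 measured genes, 13.3% were at least 2-fold higher and 22.8% at least 2-fold lower at day 7, with a median ratio of 0.80. Ifit2 had a ratio of day 7 to day 2 of 2.76 (2.19 to 3.52) and Rsad2 of 0.343 (0.301 to 0.390). In the other monocytes and macrophages the ratios of these genes were 29.5 and 1.89. For 27 of 31 effectors the ratio was smaller in Cxcl10+ monocytes than in these cells. For each gene this is the same comparison as that of its day 2 and day 7 ratios to the other labels. The share was not counted over all genes.

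The classical monocyte list summed to 0.883 (0.856 to 0.910) times its day 2 level at day 7, while the median ratio of its genes was 0.0709. Of 12 classical monocyte genes, 10 were lower at day 7, 1 (Csf1r) was higher and 1 was within 2-fold, beside the 22.8% and 13.3% of all genes. Chil3, a chitinase-like protein of monocytes, stood at 942 CPM at day 2 and 7.77 CPM at day 7, from 372 and 3 counts, a ratio of 0.00825 (0.00169 to 0.0243).

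Macrophage genes were higher at day 7 for 10 of 16 measured members and lower for 4, where 13.3% of all genes were higher and 22.8% lower. Apoe, an apolipoprotein of mature macrophages, stood at 2158 CPM at day 2 and 48563 CPM at day 7, a ratio of 22.5 (21.0 to 24.1). C1qa had a ratio of 21.6 (18.0 to 26.1). All 7 MHC class II genes were higher, with a ratio of the sums of 7.54 (7.23 to 7.86). In ambient RNA, Apoe stood at 713 and 9534 CPM and C1qa at 137 and 621 CPM, and the part of ambient RNA in these differences was not tested.

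The other monocytes and macrophages differed between the days in the same direction for these genes. There the ratio of day 7 to day 2 was 16.1 for Apoe, 7.25 for C1qa, 10.5 for Cd74 and 0.0126 for Chil3. The ratio of Cd74 in Cxcl10+ monocytes was 7.12 (6.69 to 7.59). Spp1 differed, with 0.292 (0.261 to 0.325) in Cxcl10+ monocytes and 1.34 in the others.

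**Figure D5:**
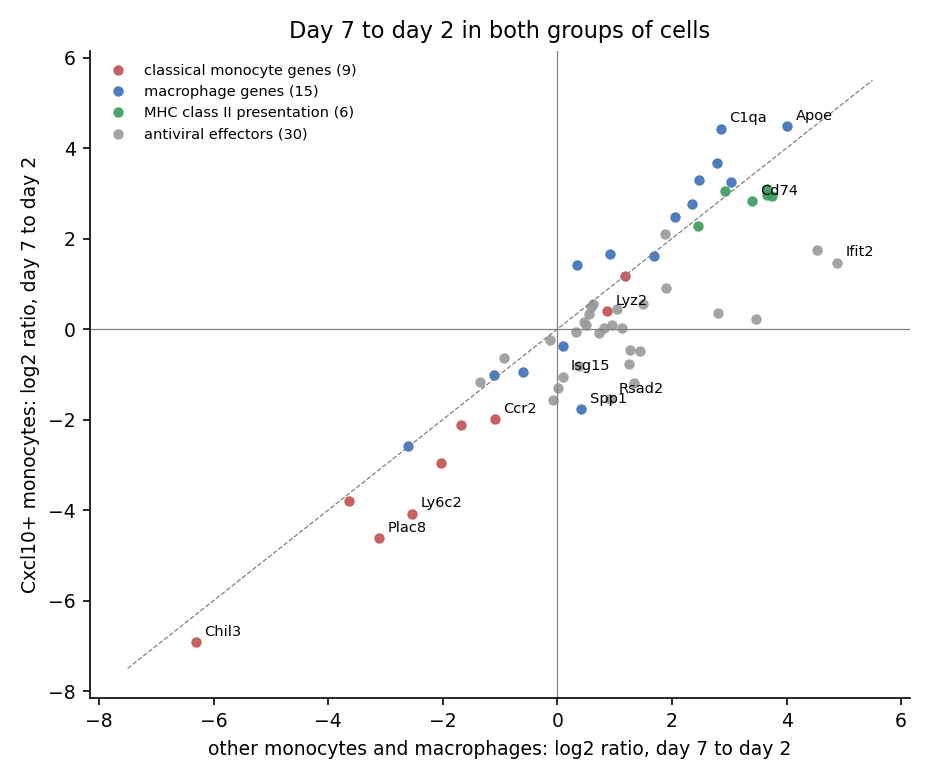
Log2 ratio of day 7 to day 2 for each measured gene, in the other monocytes and macrophages on the x axis and in Cxcl10+ monocytes on the y axis, with 1 point per gene colored by list and a dashed line where both are equal. Macrophage and MHC class II genes lie mostly to the upper right (Apoe with ratios of 16.1 and 22.5), classical monocyte genes to the lower left, and most antiviral effectors below the dashed line (Ifit2 with ratios of 29.5 and 2.76).

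By rank over all genes, 43 genes were at least 4-fold higher and 75 at least 4-fold lower at day 7, or 5.66% and 9.87% of the 760 genes with enough counts. The 8 largest ratios were those of Pltp, Cx3cr1, Gatm, Cd72, Acp5, Tmem176a, Apoe and C1qa. Pltp, a phospholipid transfer protein, had 5 counts in the day 2 cells of the group and 340 in its day 7 cells, a ratio of 69.5 (29.5 to 216). Cx3cr1, the fractalkine receptor of non-classical monocytes and macrophages, had 2 and 139 counts, a ratio of 71.1 (19.3 to 593).

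The 8 smallest ratios included those of Chil3, Thbs1, Ccl2, Slpi, Ccl7, Timp1 and Gda. Ccl2, the ligand that recruits monocytes through Ccr2, stood at 4273 CPM at day 2 and 69.9 CPM at day 7, a ratio of 0.0164 (0.0108 to 0.0239). Thbs1, which encodes the matrix protein thrombospondin 1, stood at 2824 and 25.9 CPM. Slpi, a secreted protease inhibitor, went from 182 counts to 0, at least 59.3-fold lower, but 5 cells held 78.0% of the day 2 counts. In the other monocytes and macrophages, Ccl2 had a ratio of 0.0384 and Thbs1 of 0.0259.

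Cell cycle and dissociation-associated genes were compared last. The shares of all genes past 2-fold were 6.58% higher and 5.41% lower at day 2, and 5.77% and 3.86% at day 7. Of 7 measured cell cycle genes, 0 passed 2-fold on either day, from 12 counts in the group on each day. Immediate early and heat shock genes, which dissociation of tissue can induce, summed to 1.32 (1.27 to 1.38) times the other labels at day 2, with Hspa1a and Hspa1b higher, and 0.915 (0.886 to 0.944) times at day 7, with 0 of 10 past 2-fold. Their part in the other differences was not tested.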

How the data were processed

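Droplet single-cell RNA sequencing had been run on 2 tibialis anterior libraries, 1 from day 2 and 1 from day 7 after notexin, and groups were taken from the labels. The authors deposited UMI counts per gene and barcode, for all and for called barcodes, aligned to mm10. The matrix header names Cell Ranger 3.0.1, whereas the submitters' processing notes name Cell Ranger 3.1.0 and Seurat 3.1.5. Also deposited were counts from which the authors had subtracted ambient RNA with SoupX (estimated counts, often fractional) and a table with a cell type for each annotated barcode. Per the methods of the study, putative doublets were removed with DoubletFinder and the clusters of a large integrated collection were annotated. The table holds no doublet calls and no doublet caller was run here.

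Kept cells were in the table and held at least 750 genes, at least 1000 counts and at most 30% mitochondrial counts in the SoupX values. Uncorrected counts were summed per label and library and scaled to CPM. Intervals at 95% are exact Poisson for sums, Clopper-Pearson for shares and conditional binomial for ratios. With 1 library per day no test was run, and no p-value is given. A gene at 0 was set against a floor of 3 counts, and a gene with fewer than 3 counts counted as past a fold only when it passed with 3 counts in its place. Named genes were members of the 18 gene lists that a sentence turned on, and those ranked by ratio: 12 largest and 8 smallest against the other labels on each day, and 8 largest and 8 smallest between days. Ranked genes needed at least 100 counts in 1 sum and UMIs in at least 20% of its cells, and mitochondrial, ribosomal protein, hemoglobin and 9 myofiber genes were left out. A few named genes are not reported here. The members and lists were chosen with earlier results of these data known. Mx2, Cxcl11 and Trac were not in the deposited gene table under these symbols. Gene coordinates are from GENCODE vM21 on the mm10 build and promoters from RefSeq (GRCm38.p6). Python 3.11.15, numpy 2.4.6, pandas 2.3.3, scipy 1.17.1 and matplotlib 3.10.9 were used, and the interval and ranking code was tested on simulated data. The alternatives were SoupX values, other limits, weighting, scaling and reference cells, a count minimum of 50, and cells without markers of other types.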

Additional observations from a re-analysis of the deposited data

Results flagged for a closer look

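Barcodes that met the limits on cells and had no entry in the annotation table also carried the antiviral effector list, and no comparison above used them. At day 2, 15 of 680 such barcodes (2.21%, 1.24 to 3.61) had an effector level at or above the lower quartile of Cxcl10+ monocytes, 16611 CPM. At day 7, 42 of 477 (8.81%, 6.42 to 11.7) were at or above the day 7 quartile, 12563 CPM. Among annotated kept cells outside the group, 101 of 3170 (3.19%, 2.60 to 3.86) at day 2 and 188 of 3176 (5.92%, 5.12 to 6.80) at day 7 were at or above the same levels, and the intervals overlapped with those of the barcodes without an entry on both days. A count of 0 would have allowed shares of up to 0.441% and 0.629%. Cxcl10 had 32 counts in 3 of the 15 barcodes and 40 counts in 6 of the 42. Their median depths, 2960 and 2002 counts, were below the 10174 and 7785 counts of Cxcl10+ monocytes. Which cell type these barcodes hold was not tested.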

How the results depend on the processing

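Of 76 alternative values for 15 main results, 51 stayed within the interval of the main value or within 1.5 times the main count, and 25 moved. A reversal could be called only for the ratios of the effector list, and 0 of these reversed. Shares, levels and gene counts could only stay or move. All ratios of the summed effector list to the other labels stayed above 1, and all day 7 to day 2 ratios of this sum below 1. With only monocyte and macrophage cells as denominator, the share of Cxcl10+ monocytes was 2.94% and 5.94%. SoupX values gave an effector level of 22048 CPM at day 2, and the mean over cells 16260 CPM at day 7. Leaving out cells with 3 or more marker counts of other cell types kept 16 and 13 cells, with levels of 20175 and 16387 CPM, ratios to the other labels of 3.29 and 2.85, and a ratio between days of 0.812. The day 2 ratio of 3.67 was 3.44 as a mean over cells, 3.92 with median-of-ratios scaling and 3.51 against the unweighted mean of the other labels. The day 7 ratio of 3.0 was 2.74 against that unweighted mean and 3.46 against the other monocyte labels only. The ratio between days was 0.767 as a mean over cells. Chosen after seeing the data were the list without Ifitm3 (5.96, 3.30 and 0.844), cells without endothelial markers (3.68 and 3.06), and genes in at least 20% of cells, which left 53 and 14 higher genes and 9 lower genes at day 7. With a minimum of 50 counts, 73 genes in place of 43 were higher at day 7 than at day 2. Cxcl10 was found in 50% and 37.8% of cells after thinning, and at 2 or more UMIs in 37.8% at day 7.

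Of 2006 alternative values of named genes past 2-fold, 1924 stayed past it and 10 reversed, all when cells with markers of other types were left out. These were Ccl5 (0.259), Gbp2 (0.981), Il15 (0.872) and Kcnq1ot1 (1.01) against the other labels at day 7, Slpi (0.804) and Treml4 (0.647) at day 2, and Atf3 (0.872), Itgal (0.802), Jun (0.648) and Lpl (0.802) between days. The causes were not tested. No paired analysis was possible because each day has 1 library and no result comes from a test. With 38 and 45 cells and 394843 and 386162 counts, levels of low genes rest on few counts, and 1 mouse a day leaves the spread between animals unmeasured.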
